A study of Mus musculus with 4 samples.

Results

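The 51 genes described here mark the somatic cells of the ovary and the cells that could accompany a culture taken from it. They were taken from the deposited table by gene symbol, and all 51 had a row there, of 55401 genes in all. The list holds 13 genes of granulosa and theca cells, 19 of fibroblasts and stroma, 10 of endothelium and 9 of epithelium and mesothelium. RNA was sequenced from cultured C57BL/6 mouse cells that the labels call female germline stem cells, with ovary as the tissue. Of 4 libraries, 2 came from cells treated with daidzein, a soy isoflavone, and 2 from cells treated with DMSO, the solvent. All cultures were grown in MEM-alpha with serum and with LIF, GDNF, bFGF and EGF as growth factors. The labels name no feeder cells, no dose or duration, no age of the mice, and no separate cultures behind the replicates, so the tests use the spread between these libraries alone, which may be technical.

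In the ovary, granulosa cells surround the oocyte, respond to follicle-stimulating hormone and secrete inhibins, activins and anti-Müllerian hormone. Theca and luteal cells respond to luteinising hormone and make steroids, fibroblasts lay down fibrillar collagen, and a surface epithelium related to mesothelium covers the organ. Female germline stem cells are isolated from this tissue and are often grown on fibroblast feeder layers, so transcripts of these cell types report on what a culture holds. Several of the genes are not exclusive to their class: vimentin is also made by leukocytes, and Pecam1 is also carried by platelets and white blood cells.

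The libraries held 16230400 to 18537134 reads on genes. A count of 0 in 1 library allows a true level of up to 3 counts, or 0.162 to 0.185 CPM (counts scaled to a common library size). Over the 4 libraries together the same limit is 0.0434 CPM, or 0.00322 to 0.0307 FPKM (reads scaled to exon length and library size) for the 51 genes according to their length. These limits cover counting error only. Against the labelled cell type, 11 of 22 germline genes were without a read and 18 totalled 3 reads or fewer. Among all 21897 protein-coding genes 38.1% had 0 reads and 9810 genes totalled 3 reads or fewer. Ddx4 had 0 and 0 reads with daidzein and 2 and 0 with DMSO. The 2 germline genes that passed the filter were Zbtb16 and Gdf9. Zbtb16 had 67 and 86 reads with daidzein and 69 and 93 with DMSO. Gdf9 had 11 and 3 reads with daidzein and 11 and 2 with DMSO. Of 22 blood cell genes 15 passed the filter (68.2%, against 47.2% of protein-coding genes). The list summed to 1533 and 1487 FPKM with daidzein and 1516 and 1482 FPKM with DMSO. The mast cell genes of the list were split. Cpa3, the carboxypeptidase of mast cells, had 509 and 483 FPKM with daidzein and 469 and 464 with DMSO. Kit had 69.3 and 73.9 FPKM against 73.1 and 73.8. In contrast, Ms4a2 had 1.39 and 1.42 FPKM with daidzein and 1.73 and 1.02 with DMSO. Hdc had 9 reads in all, and the mast cell genes Fcer1a and Tpsb2 had 0. Of the genes of other blood cells, Itgam and Cd3e had 0 reads. Most germline genes of the list were thus at or near 0, although the labels call the cells germline stem cells. Most blood cell genes of the list passed the filter. Both lists were chosen with earlier results of these data known, and which cells the libraries held was not tested. The part of blood cells in the levels of Vim, Egfl7 and Pecam1 was not tested.

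Most of the 51 genes had no read or almost none in either group. In the 4 libraries together 21 genes had 0 reads, 11 had 1 to 3 reads and 14 had 4 or more reads but too few to test. The other 5, Vim, Egfl7, Amh, Acta2 and Pecam1, passed the filter on low counts, which asks for about 10 reads in at least 2 libraries. Of 63892 reads on the list, 94.5% belonged to Vim. Of the 51 genes 41.2% had 0 reads and 9.80% passed the filter, against 38.1% and 47.2% of the 21897 protein-coding genes. The class names below are names of gene lists and do not say that such cells were present. In bulk RNA, fewer cells of a type and less RNA per cell cannot be told apart.

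**Figure D1:**
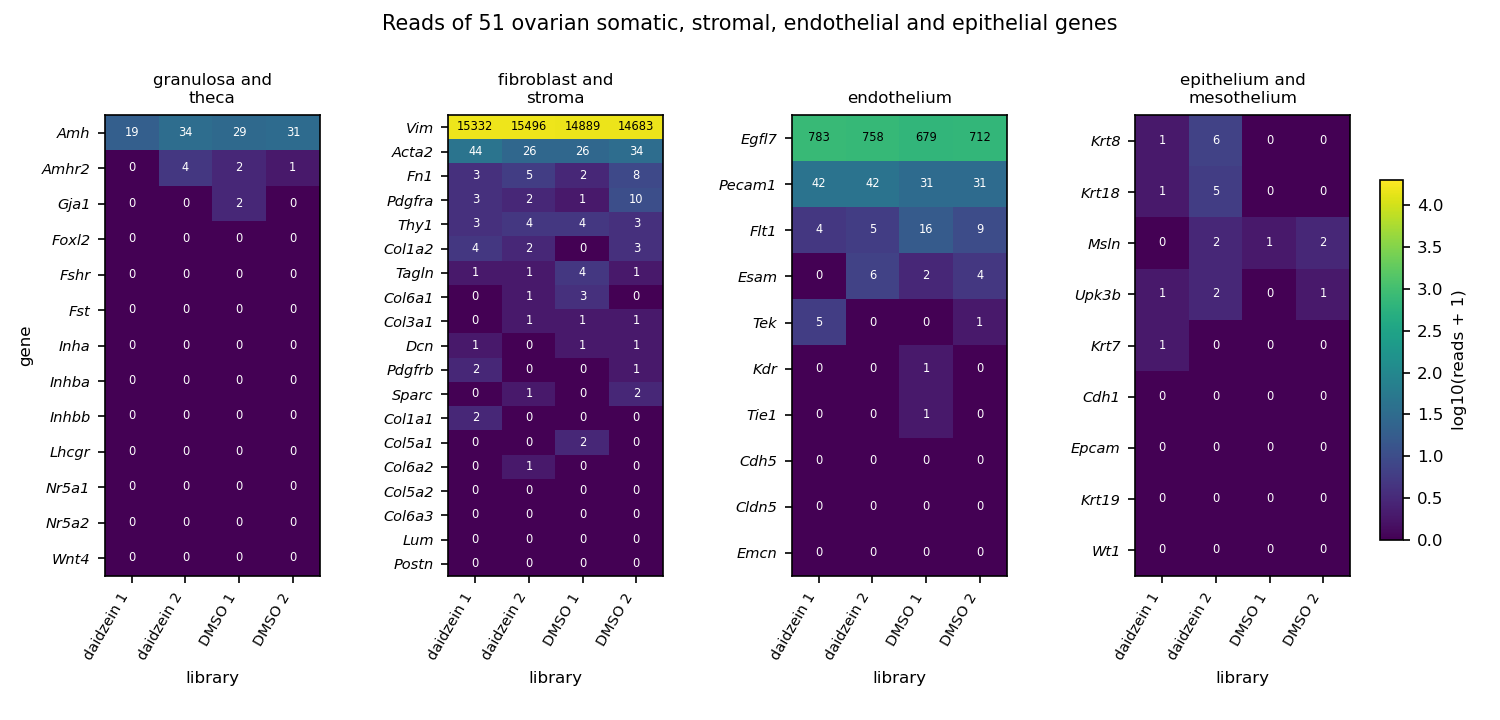
Reads of each of the 51 genes (rows, ordered by reads within their class) in the daidzein and DMSO libraries (columns). Colour gives log10(reads + 1) and each cell prints its read count. Vim holds 14683 to 15496 reads per library and Egfl7 679 to 783, while 46 of the 51 rows hold at most 16 reads in any library.

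Vim and Amh were lower and Egfl7, Acta2 and Pecam1 higher with daidzein, and none of these 5 differences passed the test. By the quasi-likelihood test of edgeR, with p adjusted over 11700 genes, the count of listed genes called was 0, and 0 had an unadjusted p under 0.05. DESeq2 also called 0 of them. Of all tested genes 2 passed, 0 higher and 2 lower with daidzein, which is 0.0171%, so a count of 0 among 5 is near the background. The median log2 difference of the 5 genes was 0.05 and that of all tested genes -0.0027. The intervals for Vim and Egfl7 lie within 0.898 to 1.17-fold, while those of Amh, Acta2 and Pecam1 reach from 0.494 to 1.94-fold. The other 46 genes had too few reads for this test.

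**Figure D2:**
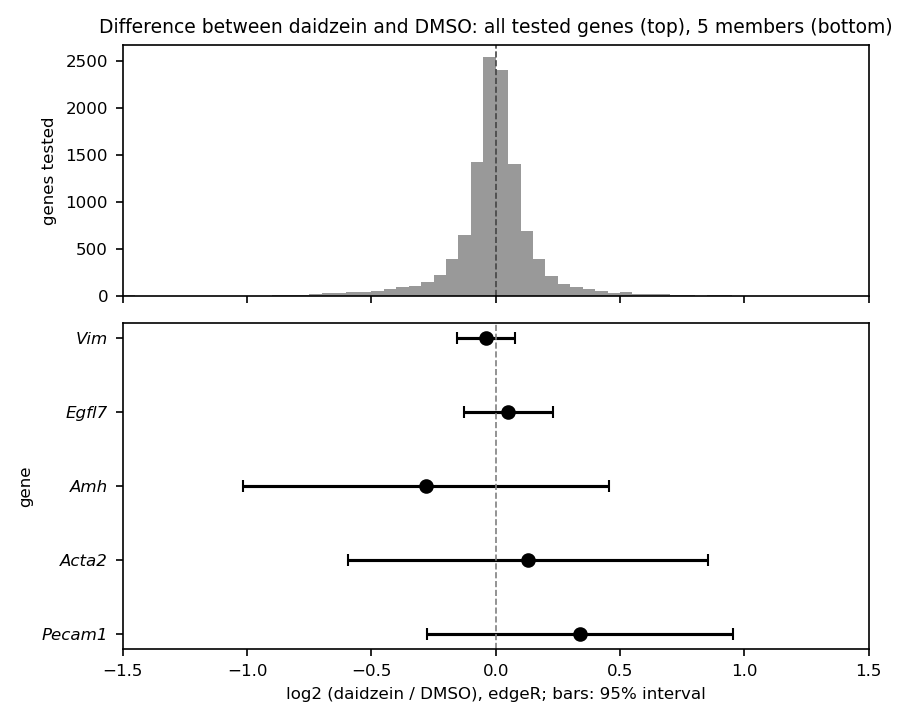
Top, number of tested genes by their log2 difference between daidzein and DMSO, with values past 1.5 placed in the outermost bins. Bottom, log2 difference of the 5 tested genes of the list with 95% intervals from edgeR, and the dashed line marks no difference. All 5 intervals cross the line, and those of Vim and Egfl7 are the narrowest.

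Vim (ENSMUSG00000026728) encodes vimentin, the intermediate filament protein of mesenchymal cells and leukocytes. It lies at chr2:13573927-13582826 on the plus strand of GRCm38. Its level was 188 and 176 FPKM in the daidzein libraries, against 193 and 181 FPKM in the DMSO libraries. The groups overlapped, with the first library of each group above the second. By mean FPKM, Vim stood above 99.0% of protein-coding genes and was the only gene of the list above 100 FPKM. Normalised counts averaged 865 ± 46.1 CPM with daidzein and 888 ± 46.9 CPM with DMSO (SD, n = 2 each), and the ratio of the groups was 0.973 (95% interval 0.898 to 1.06). The difference did not pass edgeR's quasi-likelihood test, with an adjusted p of 1.00.

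Egfl7 (ENSMUSG00000026921) encodes a secreted protein of endothelium and was the only other gene of the list above 1 FPKM on average. It lies at chr2:26580014-26593120 on the plus strand. Its level was 12.7 and 11.4 FPKM with daidzein, against 11.7 and 11.6 FPKM with DMSO. The DMSO libraries lay between the daidzein libraries. The fold was 1.04 (95% interval 0.915 to 1.17), and edgeR's adjusted p was 1.00. Egfl7 stood above 81.4% of protein-coding genes by mean FPKM. Its exons share 64 bases with those of Agpat2 on the other strand, and without a known strand setting a read in that stretch cannot be assigned. They also share 264 bases with those of Gm20532 on the same strand, where a strand setting would not tell the genes apart. Gm20532 had 0 reads.

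The promoter windows of Vim and Egfl7 are shown because these 2 genes carry nearly all reads of the list, and because the gene-level count of Egfl7 adds up transcripts from several starts. RefSeq annotates 3 windows for Egfl7 and 1 for Vim on GRCm38.p6, each running from 250 bases before to 50 bases after a start, all on the plus strand. Capitals mark GGAA or its reverse complement TTCC, the core bound by ETS factors, and GATAA or its reverse complement TTATC, the core bound by GATA factors. No marked motifs overlapped.

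Vim, chr2:13574061-13574360: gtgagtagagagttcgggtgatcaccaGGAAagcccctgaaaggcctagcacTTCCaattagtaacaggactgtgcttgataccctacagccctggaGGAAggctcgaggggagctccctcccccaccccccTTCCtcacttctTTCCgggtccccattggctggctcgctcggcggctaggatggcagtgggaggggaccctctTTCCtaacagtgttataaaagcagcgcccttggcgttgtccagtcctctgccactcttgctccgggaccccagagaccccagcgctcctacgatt
Egfl7 first start, chr2:26580833-26581132: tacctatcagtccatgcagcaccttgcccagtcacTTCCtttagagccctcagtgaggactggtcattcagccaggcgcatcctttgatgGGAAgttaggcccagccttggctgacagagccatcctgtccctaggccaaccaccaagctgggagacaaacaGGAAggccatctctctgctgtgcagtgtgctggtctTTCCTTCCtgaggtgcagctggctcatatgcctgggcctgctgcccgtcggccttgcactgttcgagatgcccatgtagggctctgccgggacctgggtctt
Egfl7 second start, chr2:26583615-26583914: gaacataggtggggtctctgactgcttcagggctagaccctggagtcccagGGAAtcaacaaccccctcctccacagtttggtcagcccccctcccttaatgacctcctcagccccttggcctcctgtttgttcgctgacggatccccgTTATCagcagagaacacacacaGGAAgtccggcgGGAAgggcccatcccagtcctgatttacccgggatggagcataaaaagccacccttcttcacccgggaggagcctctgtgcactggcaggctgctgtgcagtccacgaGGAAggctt
Egfl7 last start, chr2:26586386-26586685: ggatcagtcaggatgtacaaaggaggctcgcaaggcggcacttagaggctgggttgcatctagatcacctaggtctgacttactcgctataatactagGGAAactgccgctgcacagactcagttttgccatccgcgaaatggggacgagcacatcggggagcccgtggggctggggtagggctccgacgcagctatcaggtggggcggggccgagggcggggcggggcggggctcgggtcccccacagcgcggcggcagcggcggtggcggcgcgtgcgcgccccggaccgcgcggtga

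The Vim window held 6 GGAA motifs, and the Egfl7 windows held 5, 4 and 1 in the order printed. GATAA occurred once, in the window of the second Egfl7 start. Of 32851 windows of the same length, 96.0% held GGAA and 25.4% held GATAA, with a median of 3 and 0 per window. The last Egfl7 window was rich in CpG, with 31 CpG pairs, against 5 and 8 in the other Egfl7 windows and 11 in that of Vim. The counts per gene do not say which start was used. The companion lists hold 3 ETS factors and 2 GATA factors. Of the ETS factors, Spi1 had 37.4 and 33.4 FPKM with daidzein and 38.0 and 33.6 with DMSO, Fli1 had 23.2 and 23.9 against 20.0 and 25.0, and Erg had 0.810 and 0.720 against 1.01 and 1.03. Gata2 had 245 and 235 FPKM with daidzein, against 255 and 241 with DMSO. Gata1 had 1.31 and 1.59 FPKM with daidzein, against 2.02 and 2.08 with DMSO (fold 0.709, 95% interval 0.522 to 0.964), the smallest unadjusted p of the blood cell list, and did not pass, with an edgeR adjusted p of 1.00.

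Egfl7 also hosts a microRNA gene, Mir126a, whose products are known from endothelium and blood progenitors. The hairpin, at chr2:26591357-26591429, lies within an exon that GENCODE M21 gives to a transcript of Egfl7. The mature strand is shown with its seed, bases 2 to 8, in capitals, as RefSeq gives it on GRCm38.p6.

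mmu-miR-126a-3p, chr2:26591402-26591423: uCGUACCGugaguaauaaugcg

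The table lists Mir126a with 0 reads in all 4 libraries. The labels do not describe small RNA libraries, and a read over the hairpin also overlaps an Egfl7 exon, so the level of the microRNA was not measured.

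**Figure D3:**
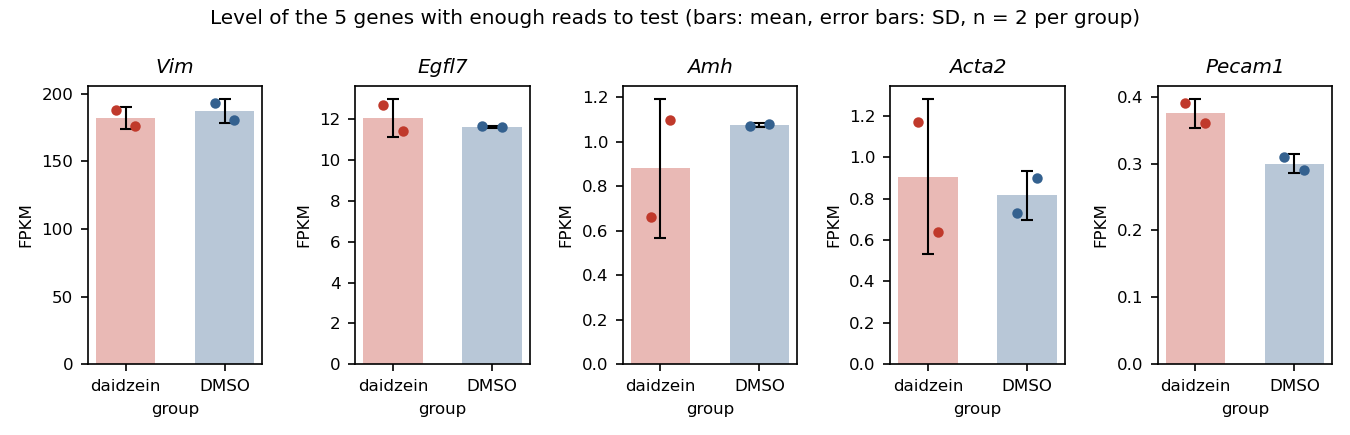
FPKM of the 5 genes that passed the filter in the daidzein and DMSO groups, in order of mean level. Points are libraries, bars are means starting at 0 and error bars are SDs (n = 2 per group). Vim lies at 176 to 193 FPKM and Egfl7 at 11.4 to 12.7 FPKM, and Pecam1 is the only one whose daidzein libraries both lie above both DMSO libraries.

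Among granulosa and theca genes, Amh was the only one with more than 10 reads in total. Foxl2, the transcription factor that maintains granulosa identity, had 0 reads in every library, and so did Fshr and Lhcgr, the receptors for follicle-stimulating and luteinising hormone. The inhibin subunit genes Inha, Inhba and Inhbb, the activin antagonist Fst, the ligand Wnt4 and the steroidogenic regulators Nr5a1 and Nr5a2 were also at 0. In all, 10 of 13 genes had 0 reads (76.9%, against 38.1% of protein-coding genes). The class summed to 0.660 and 1.21 FPKM with daidzein, against 1.14 and 1.11 FPKM with DMSO. Amhr2, the receptor for anti-Müllerian hormone, had 0 and 4 reads with daidzein, against 2 and 1 with DMSO. Gja1, the gap junction protein connexin 43 of granulosa cells and fibroblasts, had 2 reads in DMSO replicate 1 and 0 elsewhere.

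Amh (ENSMUSG00000035262) encodes anti-Müllerian hormone, a product of granulosa cells. It had 19 and 34 reads in the daidzein libraries, against 29 and 31 in the DMSO libraries, which is 0.660 and 1.10 FPKM against 1.07 and 1.08 FPKM. Daidzein replicate 1 was low, and the other daidzein library lay slightly above both DMSO libraries. The fold was 0.823 (95% interval 0.494 to 1.37), with an edgeR adjusted p of 1.00. Without daidzein replicate 1 the log2 difference turned from -0.28 to 0.02. Amh lies at chr10:80805243-80807648, plus strand, 318 bases past the end of Sf3a2 on the same strand. Sf3a2, a splicing factor gene, had 2102 and 2285 reads with daidzein and 2068 and 2046 with DMSO, and its part in the Amh reads was not tested.

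Genes of the steroid pathway were listed beside these, because theca and luteal cells use them. Cyp11a1, the enzyme that cuts the cholesterol side chain in the first step of steroid synthesis, had 60.8 and 59.6 FPKM with daidzein, against 60.9 and 59.4 with DMSO. It stood above 95.6% of protein-coding genes, and its fold was 1.00 (95% interval 0.925 to 1.08). The later enzymes Cyp17a1, Cyp19a1 and Hsd3b6 had 0 reads in every library, and Hsd3b1 had 1 read, in daidzein replicate 1. Star, which carries cholesterol into mitochondria, had 0.960 and 1.40 FPKM with daidzein and 1.47 and 1.31 with DMSO. Electron donors of Cyp11a1 were also present, Fdx1 at 16.8 to 18.7 FPKM and Fdxr at 17.9 to 18.6 FPKM over the 4 libraries. Por, the reductase that serves microsomal P450 enzymes, had 25.9 and 24.8 FPKM with daidzein, against 27.5 and 27.3 with DMSO (fold 0.927, 95% interval 0.845 to 1.02), the smallest unadjusted p of the list. Of 12 genes listed, 6 were tested, 3 were higher and 3 lower with daidzein, with a median log2 difference of -0.02, and 0 passed the edgeR test.

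Some receptors and mediators for activin and TGF-beta were found, while the inhibin and activin subunit genes had 0 reads. Other receptor genes were at or near 0 as well: Acvr1 and Bmpr1b had 0 reads, Acvr1c had 2 and Tgfbr3 had 5 in all. The ligand genes Tgfb3, Bmp2 and Bmp4 had 0 reads. The share of the list at 0 reads was 25.0%, against 38.1% of protein-coding genes. Tgfb1 had 80.2 and 77.5 FPKM with daidzein, against 81.1 and 75.9 with DMSO. The type I receptor gene Acvr1b had 14.4 and 16.6 FPKM with daidzein and 15.1 and 16.2 with DMSO. Of 24 genes listed 14 were tested, 6 higher and 8 lower with a median log2 difference of -0.02, and 0 passed. The smallest unadjusted p was that of the type II receptor gene Acvr2b, with 25 and 19 reads with daidzein and 31 and 38 with DMSO. Its fold was 0.598 (95% interval 0.361 to 0.990), with an edgeR adjusted p of 1.00.

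Among stromal genes, the collagens and their companions were near 0. Of the 19 genes of the class 21.1% had 0 reads and 10.5% passed the filter, against 38.1% and 47.2% of protein-coding genes. The 8 collagen genes of the list had 21 reads in the 4 libraries together and at most 4 reads in any one. Col1a1, a chain of type I collagen, had 2 and 0 reads with daidzein and 0 and 0 with DMSO, and Col1a2, the partner chain, had 4 and 2 against 0 and 3. Col3a1 had 0 and 1 reads with daidzein and 1 and 1 with DMSO. Col5a2 and Col6a3, along with Lum, a collagen-binding proteoglycan, and Postn, a matrix protein, had 0 reads in every library. Dcn and Sparc had 3 reads each in total, as did Pdgfrb, the receptor of pericytes. Without Vim the 18 other stromal genes summed to 1.36 and 0.820 FPKM with daidzein, against 1.02 and 1.16 FPKM with DMSO. The DMSO libraries again lay between the daidzein libraries.

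A few stromal genes had 10 or more reads but stayed below the filter. Fn1, the gene of fibronectin, had 3 and 5 reads with daidzein, against 2 and 8 with DMSO. Thy1, a surface antigen of fibroblasts and T cells, had 3 and 4 reads with daidzein and 4 and 3 with DMSO. Pdgfra, a receptor of fibroblast progenitors, had 3 and 2 with daidzein and 1 and 10 with DMSO, so 10 of its 16 reads came from DMSO replicate 2. Tagln, a smooth muscle protein gene, had fewer, 1 and 1 reads with daidzein and 4 and 1 with DMSO. Of its transcript sequence 55.4% is shared, by exact runs of 50 bases on the other strand, with the antisense gene Gm48529, so its reads are uncertain.

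Acta2 (ENSMUSG00000035783) encodes smooth muscle alpha-actin, a protein of smooth muscle, pericytes and myofibroblasts. It lies at chr19:34241090-34255590 on the minus strand. It had 44 and 26 reads in the daidzein libraries, against 26 and 34 in the DMSO libraries, or 1.17 and 0.640 FPKM against 0.730 and 0.90 FPKM. The groups overlapped, with daidzein replicate 1 the highest. The fold was 1.09 (95% interval 0.662 to 1.81), with an edgeR adjusted p of 1.00. The log2 difference of 0.13 was -0.36 without daidzein replicate 1, 0.52 without daidzein replicate 2, -0.01 without DMSO replicate 1 and 0.29 without DMSO replicate 2. Of its 50-base runs 0.326% occurred in transcripts of other genes, among them the actin gene Actg1, which had 27966 reads. The search covered exact runs only. Stambpl1, 756 bases away on the other strand, had 515 and 637 reads with daidzein and 511 and 480 with DMSO. The part of these genes in the Acta2 reads was not tested. Of other muscle genes, Myl9, a myosin light chain gene, had 5 and 5 reads with daidzein and 4 and 8 with DMSO. Cnn1 had 3 and 0 reads with daidzein and 0 and 0 with DMSO, Tpm2 had 0 and 0 against 3 and 0, and Des had 1 read, in DMSO replicate 2.

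Part of the machinery that modifies collagen was present, while the 8 collagen genes of the list were near 0. Another collagen gene, Col18a1 of the basement membrane list, had 5.58 and 5.32 FPKM with daidzein, against 6.03 and 5.58 with DMSO. P4hb, the beta subunit of prolyl 4-hydroxylase and a general disulfide isomerase, had 279 and 271 FPKM with daidzein, against 272 and 266 with DMSO. Crtap, a protein of the prolyl 3-hydroxylation complex, had 48.35 and 48.28 FPKM with daidzein, against 51.04 and 45.92 with DMSO, and Plod3, a lysyl hydroxylase, had 28.4 and 28.3 FPKM with daidzein, against 31.1 and 28.0 with DMSO. In contrast, Serpinh1, the collagen chaperone, had 1 and 0 reads with daidzein and 2 and 0 with DMSO, and the crosslinking enzyme Lox had 1 read in all. Of 21 genes listed, 9 were tested, 4 higher and 5 lower with a median log2 difference of -0.0046, and 0 passed. The smallest unadjusted p was that of the lysyl hydroxylase gene Plod2, with 7.84 and 8.90 FPKM with daidzein and 9.10 and 8.93 with DMSO (fold 0.930, 95% interval 0.825 to 1.05). Of 23 further fibroblast and feeder genes, 6 had 0 reads, including Twist1, Twist2, Tcf21, Eln and Mfap5, and 3 were tested, S100a4, Cd44 and Nt5e. These shares, 26.1% and 13.0%, compare with 38.1% and 47.2% of protein-coding genes. All 3, which blood cells make too, were lower with daidzein (median log2 difference -0.05), and 0 passed.

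Among basement membrane genes, Lama5, the laminin alpha 5 chain, had 19.7 and 23.9 FPKM with daidzein, against 23.9 and 24.3 with DMSO (fold 0.906, 95% interval 0.820 to 1.00). Lamc1, the gamma 1 chain, had 19.5 and 21.2 FPKM with daidzein and 20.8 and 21.9 with DMSO. The beta chains Lamb1 and Lamb2, with which they form a trimer, had at most 4 and 9 reads per library. The 3 tested genes of this list of 12 were lower with daidzein (median log2 difference -0.09) and 0 passed.

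Among endothelial genes, Egfl7 stood alone. Cdh5, the cadherin that joins endothelial cells, Cldn5, their tight junction claudin, and Emcn had 0 reads in every library. Of the 10 genes of the class 30.0% thus had 0 reads and 20.0% passed the filter, against 38.1% and 47.2% of protein-coding genes. The receptor gene Tie1 had 1 read in DMSO replicate 1, as did Kdr, the main receptor for vascular endothelial growth factor. Tek, the angiopoietin receptor, had 5 and 0 reads with daidzein and 0 and 1 with DMSO. Esam, an adhesion molecule, had 0 and 6 with daidzein and 2 and 4 with DMSO. The 9 genes other than Egfl7 had 200 reads in all and summed to 0.470 and 0.490 FPKM with daidzein, against 0.440 and 0.420 FPKM with DMSO.

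Pecam1 (ENSMUSG00000020717), an adhesion molecule of endothelium, platelets and leukocytes, had most of those reads. It lies at chr11:106654217-106750628 on the minus strand. It had 42 and 42 reads in the daidzein libraries, against 31 and 31 in the DMSO libraries, or 0.390 and 0.360 FPKM against 0.310 and 0.290 FPKM. Both daidzein libraries were above both DMSO libraries, and normalised counts averaged 2.36 ± 0.143 CPM against 1.86 ± 0.0800 CPM (SD, n = 2 each). The fold was 1.26 (95% interval 0.825 to 1.94), with an edgeR adjusted p of 1.00. Its groups were the only ones among the 5 tested genes that did not overlap, and 29.7% of all 11700 tested genes had groups that did not overlap. The gene starts 597 bases from Milr1, an immunoglobulin-like receptor gene of mast cells on the other strand, which had 160 and 141 reads with daidzein and 113 and 127 with DMSO.

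Flt1, a receptor for vascular endothelial growth factor that monocytes also carry, was just below the filter. It had 4 and 5 reads with daidzein, against 16 and 9 with DMSO. The DMSO libraries were both higher, and scaled to depth the ratio was 0.336 (95% exact binomial interval 0.138 to 0.744, counting error only). Groups did not overlap in 29.7% of the 11700 tested genes, to which Flt1 does not belong. Without a filter on low counts edgeR gave an unadjusted p of 0.0246 and an adjusted p of 0.976, so the difference did not pass. Of 16 further endothelial genes 4 were tested, Fli1, Mcam, Erg and Cd34, of which 2 were higher and 2 lower (median log2 difference -0.16), and 0 passed. Robo4, Sox7, Sox17, Clec14a and Aplnr had 0 reads in every library, and Vwf had 4 to 6 reads per library. The share at 0 reads in this list, 31.25%, was below the 38.1% of protein-coding genes.

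Epithelial and mesothelial genes had the fewest reads of the 4 classes, 23 in all, and no gene was tested. The granulosa and theca class was above it through Amh alone, as the 12 other genes of that class had 9 reads. Epcam, an epithelial adhesion molecule, Cdh1, the gene of E-cadherin, the keratin gene Krt19 and Wt1, a transcription factor of mesothelium and ovarian surface epithelium, had 0 reads in every library. Upk3b and Msln, surface proteins of mesothelium, had 1 and 2 reads and 0 and 2 reads with daidzein, against 0 and 1 and 1 and 2 with DMSO. Krt7 had 1 read, in daidzein replicate 1. The share of this class at 0 reads was 44.4%, against 38.1% of protein-coding genes.

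Krt8 and Krt18, the keratins that pair in simple epithelia, had reads in daidzein libraries only. Krt8 had 1 and 6 reads with daidzein and 0 and 0 with DMSO, and Krt18 had 1 and 5 against 0 and 0. Most of these reads came from daidzein replicate 2, in both genes. Without a filter on low counts edgeR gave an adjusted p of 0.976 for each, and unadjusted p of 0.0553 for Krt8 and 0.0813 for Krt18. The pseudogene Krt8-ps holds 26.9% of the 50-base runs of Krt8, so its reads can be lost or split. The class summed to 0.10 and 0.430 FPKM with daidzein, against 0.0200 and 0.0600 FPKM with DMSO, sums that rest on 19 reads against 4. The ratio of the group means was 6.63, and between 2.50 (without daidzein replicate 2) and 13.3 (without DMSO replicate 2) as each library was left out.

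Of 18 further epithelial genes, 8 had 0 reads (44.4%, against 38.1% of protein-coding genes), among them Dsp, Esrp1, Krt5, Krt14 and Muc16. In this list 3 genes were tested. Pkp2, a plaque protein of desmosomes, had 1.87 and 1.93 FPKM with daidzein, against 1.46 and 1.92 with DMSO, and Cldn7 and Jup were below 1 FPKM. Of these 3 genes 2 were higher and 1 lower with daidzein (median log2 difference 0.17), and 0 passed. Cytoplasmic partners of cadherins were present without the cadherins of the list: Ctnnb1, the gene of beta-catenin, had 91.6 and 96.5 FPKM with daidzein, against 93.4 and 95.7 with DMSO. Ctnnd1, the gene of p120 catenin, had 2 reads, in daidzein replicate 1. Of 13 junction genes 4 were tested, 1 higher and 3 lower with daidzein (median log2 difference -0.01), and 0 passed.

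**Figure D4:**
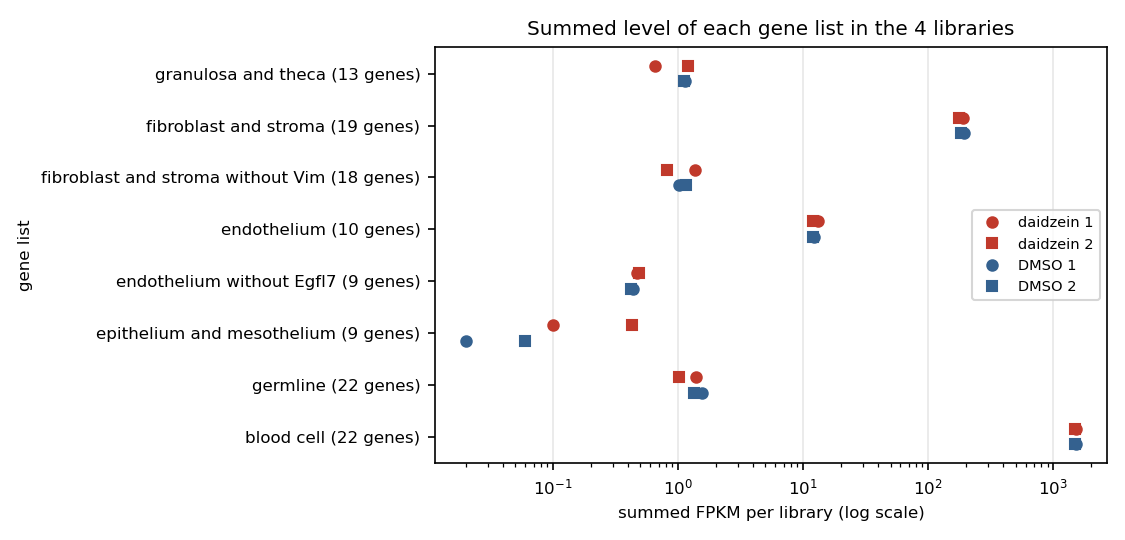
Summed FPKM of each gene list in each library on a log axis. Red symbols are daidzein libraries and blue symbols DMSO libraries, with circles for replicate 1 and squares for replicate 2. Fibroblast and stroma sum to 177 to 194 FPKM with Vim and to 0.820 to 1.36 FPKM without it, and the 22 blood cell genes sum to 1482 to 1533 FPKM.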

How the data were processed

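RNA from 4 libraries, 2 with daidzein and 2 with DMSO, was analysed from a single deposited table, in groups given by the treatment labels. Its read counts are whole numbers, deposited unnormalised as their totals show, beside FPKM values by the authors. All 65326 FPKM values with a read lay within 0.01 of the count scaled by exonic length and library total. Per the submitters' processing notes, HISAT2 2.0.1, HTSeq 0.6.1, DESeq2 and mm9 were named, with no role given, and no strand setting was found in the labels. The table's coordinates match GRCm38: of 55141 genes found in GENCODE M21, 99.4% had identical coordinates, as did all 51 genes of the list.

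The test was edgeR 4.0.16 under R 4.3.3 (TMM, default filter, quasi-likelihood F test) on all 11700 genes that passed, with a Benjamini-Hochberg adjusted p of 0.05 as threshold. Folds and 95% intervals come from this fit, daidzein over DMSO. Alternatives were DESeq2 1.42.0, RLE factors, other filters, the replicate number as a block, limma 3.58.1 on log2(FPKM + 1) and log2(FPKM + 0.1), and each library left out. The steps were tested on simulated data. Pairs of libraries differed by a chi-square of 2.23 to 4.81 per degree of freedom, more than sampling noise, so none was a duplicate. Overlaps and exact 50-base runs were searched in GENCODE M21 transcripts, and promoter and microRNA sequences are from RefSeq; 33 of 51 genes had a promoter window.

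The 51 genes and the 10 companion lists were chosen with earlier results of these data known. All 51 genes are accounted for: values in full for those tested, reads per library for those with at least 10 reads, and names for defining markers. Companion genes were to be named for the smallest p or the highest FPKM, at most 4 a list; not every gene this allows is named. Companion genes beyond these, such as those named as being at or near 0, and the list genes outside the rule were named after their values were seen.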

Additional observations from a re-analysis of the deposited data

How the results depend on the processing

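The count of 0 called genes of the list held under every alternative, among 2 to 30 genes tested, and the smallest adjusted p of any was 0.786, for Flt1 without DMSO replicate 2. The count over all genes, 2, was 1 by DESeq2, 1 with a filter of 5 CPM, 11 without a filter, 0 by limma on log2(FPKM + 1) and 0 on log2(FPKM + 0.1). Leaving out each library in turn gave 4 to 17, assuming that the library left alone in its group varies like the others. Adding the replicate number as a block gave 27, 2 of them those called without it, and the smallest adjusted p on the list was 0.915. The labels do not tie the numbers to a culture or batch and there are only 2 pairs, so no pairing was assumed. Deviations of same-numbered libraries had a correlation of 0.09 over genes, yet by chi-square per degree of freedom those pairs were the closest of 6, at 3.51 for number 1 and 2.23 for number 2, against 4.38 between the daidzein and 4.17 between the DMSO libraries. The block changed no call on the list.

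The count of listed genes with 0 reads, 21, was 32 when up to 3 reads were allowed, and 21 to 25 when each library was left out. The count of genes tested, 5, was 2 at a mean of 1 FPKM, 2 at 5 CPM, and 6 with any 1 library left out: Pdgfra joined without DMSO replicate 1, and Flt1 without each of the others. With all libraries, 32 of 32 recomputed log2 differences kept their direction. With a library left out, 6 of 20 changed it, none of them called: Vim ran from -0.094 to 0.018, Egfl7 from -0.036 to 0.14, Amh from -0.69 to 0.020 and Acta2 from -0.36 to 0.52, while Pecam1 ran from 0.28 to 0.40.

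The summed level with daidzein over DMSO was 0.831 for granulosa and theca, with a range of 0.587 to 1.08 as libraries were left out. It was 0.974 for fibroblast and stroma (0.941 to 1.01), 1.04 for endothelium (0.986 to 1.09) and 6.63 for epithelium and mesothelium (2.50 to 13.3). The last, 4.40 in CPM, rests on 23 reads, and the cause of its changes was not tested. Depth limits the 46 untested genes, 25 of which had a read, and for the 21 at 0 it allows up to 3 reads.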
